A study of Malus domestica with 36 samples.

Results

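Peel of 'Granny Smith' apples kept in DCA_CF was compared with peel of apples kept in ULO, both at time T2 and both with the tag SL, in 6 of the 36 RNA-seq libraries of the study. The 3 libraries of DCA_CF and the 3 of ULO were chosen by their labels, and no measured value entered the choice. Both are low oxygen regimes, with oxygen at 1% in ULO and below that in DCA, and the fruit share cultivar, tissue, time and SL tag. The labels expand neither CF, SL nor RA, and they state neither how long fruit were stored by T1 or T2 nor how many fruit make a replicate. The third regime of the study, RA, is given last as a level beside the low oxygen groups, from its 3 libraries at T2 with SL. DCA_CF and ULO were also sampled at T2 without SL and at T1 with and without SL, in 3 libraries per group that are not shared with the comparison at T2 with SL. Of the 57423 genes in the table, 32923 reached 1 FPKM in at least 3 of the 36 libraries and were tested. FPKM is the number of fragments assigned to a gene per kilobase of its length, scaled to the reads of the library.

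Superficial scald is a browning of apple peel that appears during and after long cold storage. In the usual account, ethylene drives the synthesis of the volatile terpene alpha-farnesene in the peel, its oxidation products injure cells, and polyphenol oxidase then turns phenolic compounds brown. Low oxygen storage slows ethylene action and respiration and is used against scald, while oxygen that is too low switches tissue to fermentation. The series' title names a static and a dynamic low oxygen strategy, and the question put to these 6 libraries is how far peel of both regimes differs in its RNA.

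Summed FPKM ran between 751990 and 774883 in the DCA_CF libraries and between 765521 and 790211 in the ULO libraries. Read totals are not used here, so depth in reads is unknown; relative depth, taken from the value of 1 read in lowly expressed genes, lay between 0.9427 and 1 over the 6 libraries. For genes at 10 to 100 FPKM replicates varied by a median coefficient of 5.002% in DCA_CF and 5.714% in ULO, within the 3.77% to 6.52% of the 12 groups. Of the other groups, only RA at T1 without SL (6.52%) and DCA_CF at T2 without SL (5.73%) varied more. Replicate b of ULO lay farthest from its group, with a median deviation of 0.1008 on the log2 scale, against 0.05300 to 0.08319 in the other 5 libraries. Genes of the peel's surface and its terpenes were present in all 36 libraries, with at least 1803 FPKM of the lipid transfer protein MALD3, 247.2 of the farnesene synthase AFS1, 177.6 of the triterpene cyclase OSC1 and 100.8 of OSC3. Other tested genes of the peel epidermis and cuticle list spanned a wide range of levels at T2 with SL, all below MALD3. MdGDSL averaged 175 FPKM in DCA_CF and 152 in ULO, GPAT 4.70 and 4.38, and MYB91 0.910 and 1.25. In bulk peel, fewer cells of a type and less RNA per cell cannot be told apart in any value below.

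The transcriptomes of DCA_CF and ULO peel lay close together at T2 with SL. Of 32923 genes, 1216 (3.69%) passed an adjusted p of 0.05 in limma's moderated test on log2(FPKM + 1), with 524 higher in DCA_CF (1.59%) and 692 lower (2.1%). The differences were small: the median size was 0.32 on the log2 scale among the genes that rose and 0.33 among those that fell, against 0.09 over all genes tested. A difference of at least 2-fold was reached by 40 genes (0.121%), 14 higher (0.0425%) and 26 lower (0.079%). That split was not stable: it was 31 higher and 26 lower without replicate a of ULO, 27 and 33 without replicate b, 35 and 31 without replicate c, 20 and 45, 16 and 40, and 22 and 40 without replicates a, b and c of DCA_CF in that order, and 62 higher and 141 lower with a pseudocount of 0.1. The 3 values of DCA_CF lay wholly outside the 3 of ULO in 511 of the 524 higher genes and in 661 of the 692 lower ones, and such a separation was seen in 5271 (16%) of all genes tested. These counts lean on the spread of all 12 groups, because the same test fitted to the 6 libraries alone called 175 genes, 67 higher and 108 lower, of which 137 were among the 1216. The share of genes called grew with level, from 1.65% of genes below 1 FPKM to 3.11% at 1 to 10, 5.37% at 10 to 100 and 12.4% above 100 FPKM.

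**Figure D1:**
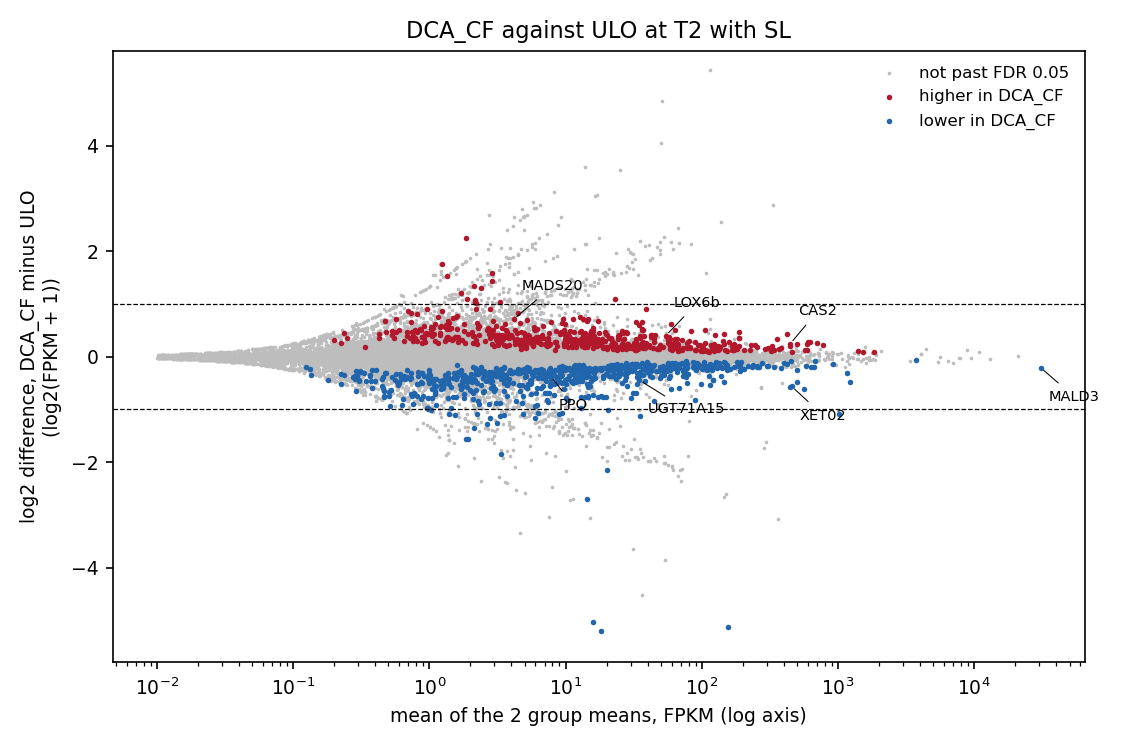
Log2 difference between DCA_CF and ULO at T2 with SL for each gene (vertical axis, on log2(FPKM + 1)) against its level (horizontal log axis, mean of the group means in FPKM); 1389 genes at or below the left end of the axis are not drawn. Red points rose and blue points fell in DCA_CF at an adjusted p under 0.05, grey points did not pass, and dashed lines mark 2-fold; nearly all coloured points lie between the dashed lines.

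The comparison was far smaller here than in the other conditions of the study. DCA_CF and ULO differed in 1216 genes at T2 with SL, against 7557 (23%) at T2 without SL, 10303 (31.3%) at T1 with SL and 13471 (40.9%) at T1 without SL. Genes 2-fold apart numbered 40 at T2 with SL, against 528 (1.6%) at T2 without SL, 1741 (5.29%) at T1 with SL and 973 (2.96%) at T1 without SL. The difference between these contrasts was itself tested. At T2 the DCA_CF minus ULO contrast with SL differed from that without SL in 4908 genes (14.9%), 539 of them (1.64% of all) by at least 2-fold. With SL the contrast at T2 differed from that at T1 in 7513 genes (22.8%), and in 1886 (5.73%) by at least 2-fold. Against RA at T2 with SL, in 2 comparisons that share the RA libraries, DCA_CF differed in 15425 genes (46.9%) and ULO in 14730 (44.7%).

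**Figure D2:**
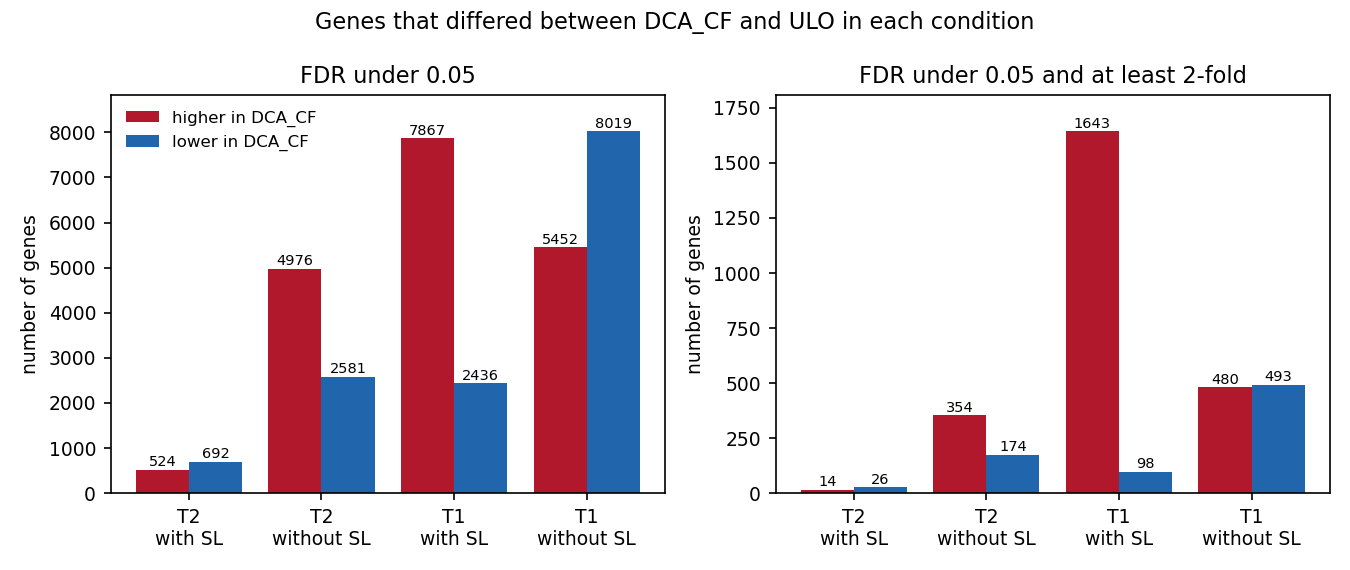
Number of genes that differed between DCA_CF and ULO in each of the 4 conditions, at an adjusted p under 0.05 (left) and also at least 2-fold apart (right); red bars are genes higher and blue bars genes lower in DCA_CF. T2 with SL has the shortest bars of both panels, with 524 and 692 genes on the left and 14 and 26 on the right.

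PPO, F3H, UGT71A15 and CAD, genes of browning and phenolic metabolism, were lower in DCA_CF, and UGT88F1 was higher. PPO, polyphenol oxidase and the single gene of the browning list, had 6.46, 7.02 and 6.44 FPKM in DCA_CF and 9.22, 9.13 and 8.30 FPKM in ULO. It fell by 0.37 on the log2 scale (SE 0.05, adjusted p = 5.416e-06), with no overlap between the groups. Both levels were low beside the 940 ± 12 FPKM (SD, n = 3) of RA peel. Of the 16 genes of the flavonoid and dihydrochalcone list that were tested, 1 rose (6.25%), 2 fell (12.5%) and 13 did not pass, beside 1.59% higher and 2.1% lower of all genes tested, with a median difference of 0 against 0.001 over all genes. In lists of this size 1 gene moves the share by several percent, and the lists that follow are read against the same 1.59% and 2.1%. F3H (LOC103400025), flavanone 3-hydroxylase of the flavonoid pathway, had 22.2, 21.3 and 20.6 FPKM in DCA_CF and 30.9, 31.6 and 29.6 FPKM in ULO. UGT71A15 (LOC103441425), a glycosyltransferase of the dihydrochalcone list, had 29.6, 28.0 and 30.0 FPKM in DCA_CF and 40.4, 39.6 and 40.2 FPKM in ULO. Each was lower in every DCA_CF library than in any ULO library, by 0.50 (adjusted p = 3.94e-08) for F3H and 0.44 (adjusted p = 1.946e-08) for UGT71A15 on the log2 scale. UGT88F1 (LOC103402192), which glucosylates phloretin to phloridzin, the main dihydrochalcone of apple, rose instead, with 191 ± 3.5 FPKM in DCA_CF and 171 ± 3.8 FPKM in ULO (adjusted p = 0.0003872). A further F3H entry of the list, MdF3H (LOC103436139), did not fall. It averaged 8.15 ± 0.20 FPKM in DCA_CF and 7.67 ± 0.22 FPKM in ULO and did not pass (log2 difference 0.08, adjusted p = 0.5845 in limma). CHS1 (LOC103421794), a chalcone synthase at the entry of the pathway, averaged 1.09 ± 0.17 FPKM in DCA_CF and 1.13 ± 0.47 FPKM in ULO, against 617 ± 14 FPKM in RA. CAD (LOC103413149), a cinnamyl alcohol dehydrogenase of monolignol synthesis that is in neither list, had 461, 447 and 467 FPKM in DCA_CF and 551, 551 and 541 FPKM in ULO, a fall of 0.26 on the log2 scale (adjusted p = 0.001958).

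The main genes of farnesene and ethylene synthesis did not pass the test. AFS1 (LOC103446592), which makes alpha-farnesene, had 1334, 1371 and 1312 FPKM in DCA_CF and 1306, 1248 and 1280 FPKM in ULO. All 3 DCA_CF values were above the ULO values, but the difference of 0.07 on the log2 scale (95% interval 0.01 to 0.12, adjusted p = 0.2385 in limma) did not pass. ACS1 (LOC103405045), ACC synthase of fruit ripening, averaged 28.6 ± 0.81 FPKM in DCA_CF and 29.5 ± 0.79 FPKM in ULO. ACO1 (LOC103446762), ACC oxidase, which releases ethylene, averaged 6243 ± 180 FPKM in DCA_CF and 6610 ± 183 FPKM in ULO, and neither passed (adjusted p = 0.8891 and 0.4154). The 95% intervals of the log2 difference ran from -0.18 to 0.09 for ACS1 and from -0.17 to 0.01 for ACO1, so that a difference of 2-fold in either direction lies outside them.

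Within the 6 ethylene synthesis genes, 1 rose, 1 fell and 4 did not pass, beside 1.59% higher and 2.1% lower of all genes tested. CAS2 (LOC103405317), a beta-cyanoalanine synthase that detoxifies the cyanide released with ethylene, had 477, 478 and 490 FPKM in DCA_CF and 412, 413 and 398 FPKM in ULO. It rose by 0.24 on the log2 scale (SE 0.04, adjusted p = 0.0002491) without overlap. ACS3 (LOC103430893), a second ACC synthase, had 0.657, 0.428 and 0.307 FPKM in DCA_CF and 1.62, 1.67 and 2.01 FPKM in ULO, a fall of 0.92 (adjusted p = 1.084e-10). ACS3 was listed at 0 in all DCA_CF and ULO libraries of the other conditions, which add nothing to its spread, and in the 6 libraries alone its adjusted p was 0.06143. RA held 2.98 ± 0.24 FPKM of ACS3 at T2 with SL. None of 12 genes of ethylene perception and signalling passed, beside 3.69% of all genes, among them the receptor ERS (LOC103449156) at 40.6 FPKM in DCA_CF and 40.6 FPKM in ULO. Their median difference was 0.02.

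Of 9 genes of isoprenoid and triterpene synthesis, 1 fell and 8 did not pass, with a median of 0. HMG1 (LOC103410649), HMG-CoA reductase, which commits carbon to the mevalonate pathway, had 266, 266 and 257 FPKM in DCA_CF and 288, 284 and 290 FPKM in ULO. It fell by 0.13 on the log2 scale (adjusted p = 0.01648), a call lost in 5 of 14 alternatives. OSC4 (LOC103443364), a triterpene-forming cyclase, was listed at 0 in the 3 DCA_CF libraries and at 0.207, 0.118 and 0.066 FPKM in ULO, against 11.3 ± 2.2 FPKM in RA.

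The fermentation gene ADH1-1 was near 0 in both regimes, and the few low oxygen genes that passed moved in both directions. ADH1-1 (LOC103428551), alcohol dehydrogenase of ethanol formation, averaged 0.158 ± 0.15 FPKM in DCA_CF and 0.266 ± 0.04 FPKM in ULO, against 23.0 ± 1.0 FPKM in RA (adjusted p = 0.444 between DCA_CF and ULO). GLB1, a class of plant hemoglobin induced by low oxygen in many plants, had 13.2, 9.93 and 11.9 FPKM in DCA_CF and 18.03, 17.97 and 17.3 FPKM in ULO. It fell by 0.57 on the log2 scale (SE 0.07, adjusted p = 3.039e-06), and RA held 176 ± 0.83 FPKM. GAD1, a glutamate decarboxylase that makes the amino acid GABA, had 606, 583 and 602 FPKM in DCA_CF and 542, 559 and 540 FPKM in ULO. It rose by 0.12 (adjusted p = 0.005278; lost with RLE size factors and in the 6 libraries alone), while its paralog GAD2 averaged 3.20 ± 0.06 FPKM in DCA_CF and 3.86 ± 0.25 FPKM in ULO and fell by 0.21 (adjusted p = 0.03228), a call lost in 6 of 14 alternatives. Of the 5 genes of the fermentation list, 1 rose (20%, beside 1.59% of all genes), 2 fell (40%, beside 2.1%) and 2 did not pass, with a median of -0.14. The ester-forming alcohol acyltransferase AAT1 (LOC103406706) had 443, 452 and 464 FPKM in DCA_CF and 431, 424 and 422 FPKM in ULO. Its groups did not overlap, the difference was 0.09 and its adjusted p was 0.1186, which fell to 0.04309 when libraries were scaled to a total of 1000000.

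**Figure D3:**
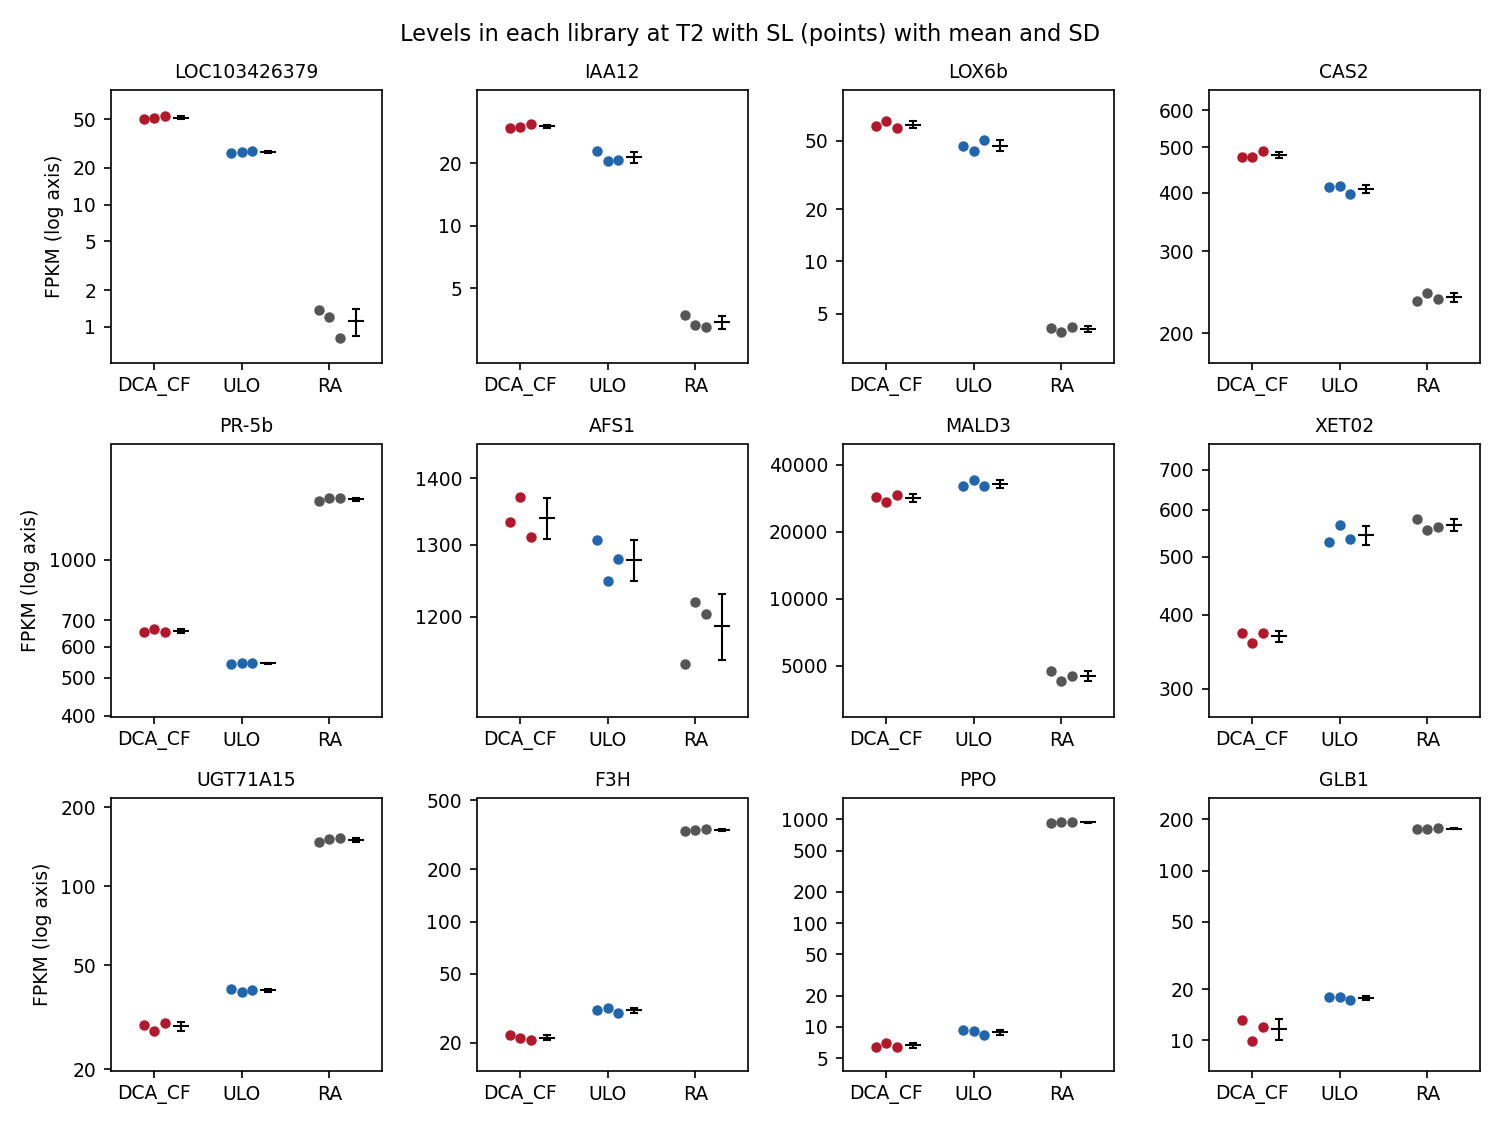
FPKM (log axis, a separate range per gene) of 12 genes in each library of DCA_CF, ULO and RA at T2 with SL, with the mean and SD of the 3 libraries as a black bar. PPO, GLB1, F3H and UGT71A15 are lower in DCA_CF than in ULO by less than 1 log2 unit while RA lies well above both, and LOC103426379, IAA12 and LOX6b are highest in DCA_CF and lowest in RA.

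Cell wall genes moved in both directions, with 2 higher (33.3%), 3 lower (50%) and 1 not past the test among 6, beside 1.59% and 2.1% of all genes, and a median difference of -0.06. XET02, a xyloglucan endotransglucosylase that cuts and rejoins wall polymers, had 372, 359 and 372 FPKM in DCA_CF and 529, 566 and 536 FPKM in ULO. It fell by 0.56 on the log2 scale (SE 0.03, adjusted p = 8.002e-14). Its relative XET01 had 107, 108 and 111 FPKM in DCA_CF and 130, 130 and 131 FPKM in ULO, a fall of 0.26 (adjusted p = 0.0001129). The pectin-cutting polygalacturonase PG1, which softens ripening apples, averaged 288 ± 9.6 FPKM in DCA_CF and 327 ± 2.3 FPKM in ULO and fell by 0.18 (adjusted p = 0.02108), a call lost in 7 of 14 alternatives. BGAL101, a beta-galactosidase, averaged 473 ± 23 FPKM in DCA_CF and 412 ± 30 FPKM in ULO and rose by 0.20 (adjusted p = 0.01534), a call lost in 3 of 14 alternatives. The expansin EXPA1 (LOC103447269), which loosens walls, had 2.20, 2.45 and 2.38 FPKM in DCA_CF and 1.70, 1.23 and 1.54 FPKM in ULO, a rise of 0.43 (adjusted p = 0.003623) at a low level.

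MALD3 (LOC103450745), the apple lipid transfer protein allergen of the peel surface, was the gene of highest level that passed. It had 28788, 27220 and 29260 FPKM in DCA_CF and 32129, 34217 and 32115 FPKM in ULO, against 4512 ± 245 FPKM in RA. It fell by 0.21 on the log2 scale (SE 0.04, adjusted p = 0.001209), and its share of the summed FPKM was 3.62% to 3.78% in DCA_CF and 4.19% to 4.33% in ULO. The call was lost in the fit of the 6 libraries alone (adjusted p = 0.961), although no DCA_CF value reached a ULO value. Within the 14 pathogenesis-related and allergen genes, 2 rose (14.3%), 1 fell (7.14%) and 11 did not pass, beside 1.59% and 2.1% of all genes, with a median of 0.00. PR-5b (LOC103429376), a thaumatin-like defence protein, had 653, 667 and 653 FPKM in DCA_CF and 543, 546 and 547 FPKM in ULO. TL1 (LOC103411735), also thaumatin-like, averaged 840 ± 20 FPKM in DCA_CF and 717 ± 4.8 FPKM in ULO. Both rose, by 0.27 (adjusted p = 4.597e-06) for PR-5b and 0.23 (adjusted p = 6.427e-06) for TL1. Thaumatin-like genes resemble one another, so reads of PR-5b and TL1 may be shared between them.

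Stress genes showed no common direction. HSF6 (LOC103403040), a heat shock factor, had 2.16, 1.94 and 2.19 FPKM in DCA_CF and 3.43, 4.11 and 3.997 FPKM in ULO, a fall of 0.64 on the log2 scale (adjusted p = 2.4e-05), against 67.3 ± 1.9 FPKM in RA. The chaperone HSP90.5 (LOC103402763) rose by 0.11, with 102 ± 2.6 FPKM in DCA_CF and 94.5 ± 2.3 FPKM in ULO (adjusted p = 0.04822). This call was lost in 10 of 14 alternatives, among them RLE size factors, scaling to a total, no filter on low values, the replicate block and 5 of the 6 fits without 1 library. The other 6 of 8 heat shock genes did not pass. The list's median difference was 0.04. Of 5 dehydrins, proteins that protect cells as they lose water, 2 fell (40%, beside 2.1% of all genes) and 3 did not pass, with a median of -0.19. DHN8 (LOC103450328) had 142, 139 and 140 FPKM in DCA_CF and 160, 163 and 162 FPKM in ULO and fell by 0.20 (adjusted p = 7.261e-07). DHN5 (LOC103401182) had 21.5, 22.0 and 20.6 FPKM in DCA_CF and 25.4, 30.1 and 28.3 FPKM in ULO and fell by 0.37 (adjusted p = 0.004685). DHN9 (LOC103415521), at 5634 FPKM in DCA_CF and 5653 FPKM in ULO, did not pass.

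Lipoxygenases, which oxidise unsaturated fatty acids, gave 1 gene higher and 1 lower among 13 tested (7.69% each, beside 1.59% and 2.1% of all genes), with a median of 0.04. LOX6b (LOC103422578) had 60.9, 65.0 and 59.4 FPKM in DCA_CF and 46.3, 43.7 and 50.3 FPKM in ULO, and rose by 0.39 on the log2 scale (adjusted p = 0.0003016; lost with a pseudocount of 0.1 and in the 6 libraries alone), against 4.08 ± 0.16 FPKM in RA. LOX1a (LOC103411221) had 1021, 1096 and 986 FPKM in DCA_CF and 1311, 1188 and 1336 FPKM in ULO, and fell by 0.30 (adjusted p = 0.0007923). The 2 genes thus stood on opposite sides, and in the RA libraries LOX6b was lowest and LOX1a highest, at 1756 ± 48 FPKM.

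Sugar, sorbitol and starch genes gave 3 higher (20%), 1 lower (6.67%) and 11 not past the test among 15, beside 1.59% and 2.1% of all genes, with a median of -0.03. SOT2, a sorbitol transporter, had 1.09, 1.60 and 1.48 FPKM in DCA_CF and 0.583, 0.701 and 0.669 FPKM in ULO, a rise of 0.53 on the log2 scale (adjusted p = 0.0001716). The sorbitol dehydrogenases, which turn sorbitol into fructose, split: SDH6 (LOC103439704) averaged 74.8 ± 0.40 FPKM in DCA_CF and 68.7 ± 0.62 FPKM in ULO and rose by 0.12, and SDH1 (LOC103432365) averaged 656 ± 1.9 FPKM in DCA_CF and 699 ± 6.6 FPKM in ULO and fell by 0.09 (adjusted p = 0.0005103 and 0.005559). The amylase AMY10, which breaks down starch, rose by 0.19, with 176 ± 12 FPKM in DCA_CF and 154 ± 12 FPKM in ULO (adjusted p = 0.04726), a call lost in 7 of 14 alternatives. CWI, a cell wall invertase that splits sucrose, was listed at 0 in all 3 DCA_CF libraries and in 2 of the 3 ULO libraries, against 23.98 ± 2.3 FPKM in RA.

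Hormone and regulatory genes were mostly not past the test. In the auxin list 1 of 12 tested genes rose (8.33%, beside 1.59% of all genes) and none fell, with a median of 0.11. That gene was IAA12, one of the Aux/IAA repressors of auxin response, with 29.8, 29.9 and 30.9 FPKM in DCA_CF and 23.0, 20.6 and 20.7 FPKM in ULO, a rise of 0.48 on the log2 scale (adjusted p = 0.001019; 0.5333 with a pseudocount of 0.1), against 3.42 ± 0.24 FPKM in RA. Of 37 abscisic acid genes and stress kinases 3 rose (8.11%, beside 1.59% of all genes) and none fell, beside 2.1% of all genes, with a median of 0.03, led by the kinase SnRK2.3 (LOC103402785) at 17.1, 15.5 and 14.4 FPKM in DCA_CF and 13.4, 11.6 and 12.2 FPKM in ULO (log2 difference 0.32, adjusted p = 2.06e-05). No member passed among 13 WRKY, 17 MYB-related and 8 bHLH transcription factors or among 5 genes of gibberellin signalling, sets too small for 0 calls to stand out from the 3.69% called of all genes. Of 38 AP2/ERF factors, which include the ethylene response factors, 1 rose and 4 fell, beside 1.59% and 2.1% of all genes, with a median of -0.05.

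Among the regulators that passed, MADS20 (LOC103416871), a MADS-box factor, rose by 0.71 on the log2 scale (adjusted p = 0.004254), with 5.51, 5.42 and 5.22 FPKM in DCA_CF and 3.33, 2.43 and 3.02 FPKM in ULO. MADS13 (LOC103407084), of the same family, fell by 0.81 (adjusted p = 4.675e-06) at 0.451, 0.320 and 0.292 FPKM in DCA_CF and 1.06, 1.62 and 1.45 FPKM in ULO. MYB8 had 42.5, 44.7 and 43.0 FPKM in DCA_CF and 57.7, 53.8 and 57.8 FPKM in ULO and fell by 0.37 (adjusted p = 1.931e-05). All 3 separated the groups, the MADS genes at low levels and MYB8 at a moderate one. BZIP16, a bZIP factor, averaged 179 ± 1.2 FPKM in DCA_CF and 164 ± 0.63 FPKM in ULO, a rise of 0.13 (adjusted p = 0.01004). NAC5 averaged 111 ± 2.1 FPKM in DCA_CF and 127 ± 6.8 FPKM in ULO and fell by 0.18 (adjusted p = 0.001176). The AP2/ERF factor AP2D25 (LOC103422389) averaged 6.08 ± 0.41 FPKM in DCA_CF and 7.79 ± 0.53 FPKM in ULO and fell by 0.31 (adjusted p = 0.000135), whereas AP2D55 averaged 335 ± 5.6 FPKM in DCA_CF and 310 ± 6.3 FPKM in ULO and rose by 0.11 (adjusted p = 0.0007153). AP2D8 (LOC103427506) fell by 0.23 (adjusted p = 0.03357), a call lost in 5 of 14 alternatives. Smaller rises of 0.25 to 0.31 were measured for HD6, TCP4A, GATA5, SPL2, COL9, ARF1 and MYB3, each below 20 FPKM in both groups, with adjusted p between 0.003623 (ARF1) and 0.04901 (GATA5). Of 14 alternatives these calls were lost in 10 for GATA5, 7 for TCP4A, 6 for SPL2, 5 for COL9, 4 for MYB3, 3 for HD6 and 1 for ARF1.

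The rubisco activase rca (LOC103456062), which keeps the carbon-fixing enzyme of the chloroplast active, had 16.1, 14.6 and 15.6 FPKM in DCA_CF and 11.2, 10.6 and 12.2 FPKM in ULO, a rise of 0.41 on the log2 scale (adjusted p = 0.0004291). The aquaporin PIP1a (LOC103455112), a water channel, averaged 879 ± 6.9 FPKM in DCA_CF and 963 ± 29 FPKM in ULO, a fall of 0.13 (adjusted p = 0.009947; lost without replicate b of ULO and in the 6 libraries alone). Outside the lists, and chosen after their values were seen, were pp2-1 and LAX2. The phloem protein gene pp2-1 (LOC103434454) averaged 3.83 ± 0.23 FPKM in DCA_CF and 2.03 ± 0.31 FPKM in ULO (log2 difference 0.67, adjusted p = 0.003026). The auxin importer LAX2 averaged 1.096 ± 0.05 FPKM in DCA_CF and 0.515 ± 0.03 FPKM in ULO (log2 difference 0.47, adjusted p = 0.005992; 0.3425 with a pseudocount of 0.1). Over the lists together, 27 of 408 tested genes rose (6.62%, beside 1.59% of all genes), 26 fell (6.37%, beside 2.1%) and 355 did not pass, with a median of 0.01 against 0.001 for all genes tested. Calls were more frequent at high levels, as given above, and the lists were chosen with earlier results of these data known. The part of level and of that choice in the lists' counts was not tested.

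Of the 40 genes 2-fold apart, 1 carries a name. Just short of 2-fold, LOC103426379 rose with 50.2, 50.6 and 53.4 FPKM in DCA_CF and 26.5, 27.1 and 27.4 FPKM in ULO (log2 difference 0.90, adjusted p = 0.0001515; 0.4233 with a pseudocount of 0.1), against 1.13 ± 0.28 FPKM in RA. LOC103402577 fell at the highest level of the 40, with 660, 614 and 658 FPKM in DCA_CF and 1374, 1451 and 1288 FPKM in ULO (log2 difference -1.09, adjusted p = 4.033e-13), against 378 FPKM in RA. It was singled out after its values were seen, and the files give it no function. LOC103434169 had 21.8, 20.8 and 22.7 FPKM in DCA_CF and 50.4, 47.5 and 47.2 FPKM in ULO and fell by 1.12 (adjusted p = 1.209e-15). LOC103452835 had 3.16, 2.72 and 3.97 FPKM in DCA_CF and 8.79, 9.37 and 7.56 FPKM in ULO and fell by 1.17 (adjusted p = 5.579e-12). Both unnamed genes were lower in DCA_CF than in ULO, and both were far below the 723 ± 27 and 1206 ± 37 FPKM of RA.

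The genes of largest fold were of another kind. The 14 that rose were at low levels, 13 of them with a DCA_CF mean below 10 FPKM, and LOC103443970 and LOC103411584 were listed at 0 in all ULO libraries. LOC103444659 was listed at 0 in all DCA_CF libraries and at 31.4, 32.2 and 31.7 FPKM in ULO (adjusted p = 0.0006212), and LOC103414264 at 0 in all DCA_CF libraries and at 38.3, 35.0 and 35.0 FPKM in ULO (adjusted p = 0.01886), a call lost in all 6 fits without 1 library, with an adjusted p of up to 0.05898. In FPKM files a value of 0 can also be a failed estimate, and LOC103414264 was spread from libraries at 0 to libraries near its usual level at T2 without SL (41.1 ± 36 FPKM in DCA_CF and 44.5 ± 39 FPKM in ULO). LOC103444659 also varied within groups, at 14.2 ± 25 FPKM in ULO at T1 with SL. In RA at T2 with SL it was at 0, 9.99 and 0 FPKM. The mitochondrial ribosomal protein gene rps3 had 0.601, 0 and 22.7 FPKM in DCA_CF and 21.1, 21.1 and 20.3 FPKM in ULO, with 1 DCA_CF library at the level of ULO. It was the single one of 32 tested mitochondrial genes that passed (adjusted p = 0.0146), the list's median was -0.00, and the call was lost without replicate a or without replicate b of DCA_CF. Likewise LOC103430685 had 9.80, 26.2 and 0 FPKM in DCA_CF and 26.8, 27.5 and 31.3 FPKM in ULO, a call (adjusted p = 0.04916) lost in 8 alternatives. LOC103444659, LOC103414264, rps3 and LOC103430685 were untested in the alternative that left out genes listed at 0 beside a library of at least 5 FPKM in the same group. In all, 6 of the 40 genes were listed at 0 in some library of the 36 while another library of that same group reached 5 FPKM.

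Levels in RA gave the 2 directions different settings. RA peel was above both low oxygen groups in 518 of the 692 genes lower in DCA_CF (74.9%), in 209 of the 524 genes higher in DCA_CF (39.9%) and in 15511 of all genes tested (47.1%). PPO, GLB1, F3H, UGT71A15, CAD and HSF6 belong to the first kind, while IAA12, LOX6b, GAD1 and CAS2 were higher in DCA_CF and lowest in RA. XET01 and MALD3 were lower in DCA_CF than in ULO although RA lay below both. PR-5b, TL1, rca and SnRK2.3 were higher in DCA_CF than in ULO although RA lay above both. RA lay below both groups in 239 of the 524 higher genes, 112 of the 692 lower ones and 12673 of all genes tested.

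Most genes lower in DCA_CF at T2 with SL were higher in DCA_CF at T1 with SL. Of the 692 genes, 480 (69.4%) passed in the opposite direction at T1 with SL, which is 6.1% of the 7867 genes (23.9%) higher there, and 68 (9.83%) passed in the same direction, 2.79% of the 2436 genes (7.4%) lower there. The 480 had a median difference of -0.36 at T2 and 0.93 at T1 with SL. PPO was the clearest named case, with 269 ± 2.9 FPKM in DCA_CF and 5.67 ± 0.42 FPKM in ULO at T1 with SL, with log2 differences of -0.37 at T2 and 5.34 at T1. DHN5 averaged 85.0 ± 2.6 FPKM in DCA_CF and 6.36 ± 0.52 FPKM in ULO at T1 with SL (log2 difference 3.55). HSF6 averaged 25.3 ± 2.0 FPKM in DCA_CF and 1.86 ± 0.21 FPKM in ULO at T1 with SL (log2 difference 3.21). All 17 named genes of this kind are GAD2, GLB1, F3H, DHN5, HSF6, MADS13, HMG1, AP2D20, CAD, AP2D25, NAC19, UGT71A15, DHN8, PIP1a, MYB8, PPO and XET02, with differences at T1 with SL between 0.13 and 5.34.

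**Figure D4:**
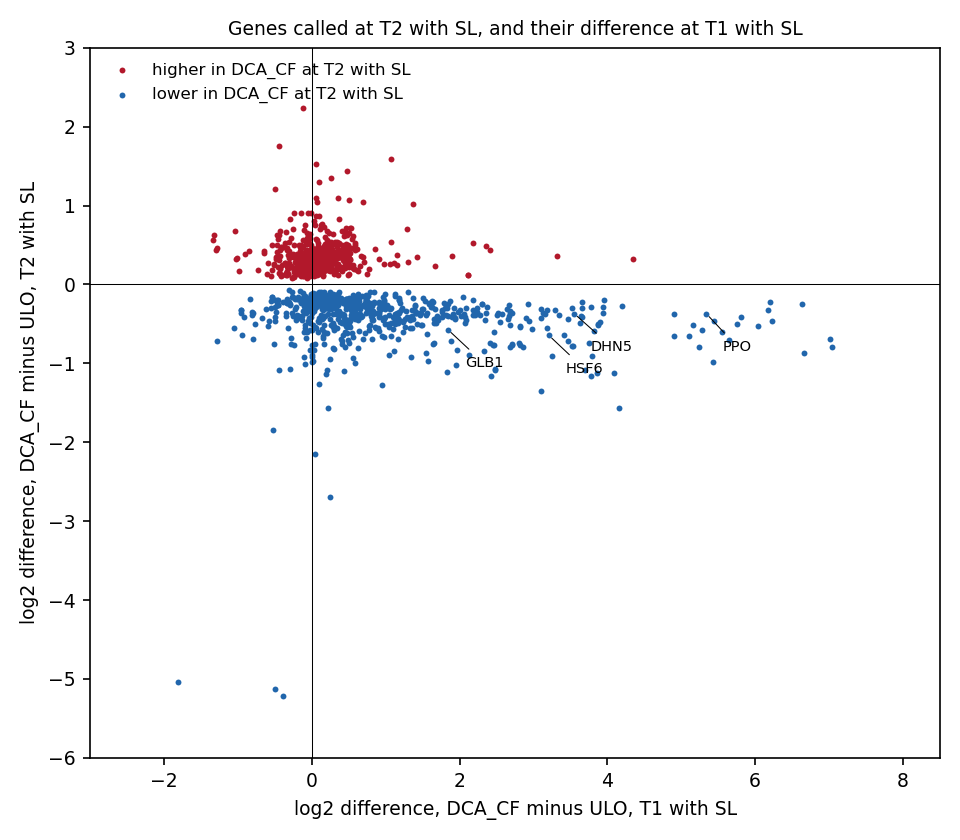
Log2 difference between DCA_CF and ULO at T2 with SL (vertical axis) against the same difference at T1 with SL (horizontal axis) for the 1216 genes that passed at T2 with SL; red genes were higher and blue genes lower in DCA_CF at T2. The blue points spread far to the right, where 480 of 692 were higher in DCA_CF at T1, while the red points lie mostly around 0 on the horizontal axis.

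Conversely, most large differences of the other conditions were not called at T2 with SL. Counting both directions together, these genes were still called more often than all genes tested. Of all genes tested, 3.69% were called at T2 with SL, 1.59% higher and 2.1% lower. Of the 1643 genes (4.99%) at least 2-fold higher in DCA_CF at T1 with SL, 19 were higher, 221 were lower and 85.4% did not pass at T2 with SL, and their median difference was -0.05 at T2 and 1.68 at T1. Of the 354 genes (1.08%) 2-fold higher in DCA_CF at T2 without SL, 58 were higher, 12 were lower and 80.2% did not pass with SL. Of the 174 genes (0.529%) 2-fold lower there, 2 were higher, 37 were lower and 77.6% did not pass. Genes higher in DCA_CF with SL recurred in part without it: 243 of the 524 (46.4%) also passed as higher at T2 without SL, 4.88% of the 4976 (15.1%) higher there, and 88 (16.8%) passed as lower, 3.41% of the 2581 (7.84%) lower there.

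At T2, AFS1 differed little between regimes with SL and clearly without it. With SL at T2 it averaged 1339 ± 30 FPKM in DCA_CF and 1278 ± 29 FPKM in ULO. Without SL it averaged 289 ± 8.0 FPKM in DCA_CF and 842 ± 19 FPKM in ULO, a log2 difference of -1.54 (adjusted p = 9.073e-25), and the change of the contrast was 1.61 (SE 0.04, adjusted p = 2.581e-21). CAS2 took opposite directions at T2, with a log2 difference of 0.24 with SL and -1.27 without SL, and so did XET02, with -0.56 with SL and 0.74 without SL. ACS1 and ACO1, which did not pass at T2 with SL, were lower in DCA_CF at T2 without SL, with log2 differences of -0.64 and -0.75. At T1 with SL, AFS1, ACS1 and ACO1 each passed, with log2 differences of -0.48, -0.55 and 0.19 in that order. CWI and OSC4, at or near 0 in both regimes at T2 with SL, were higher in DCA_CF at T1 with SL, with log2 differences of 3.996 and 4.24. ADH1-1 was also higher in DCA_CF at T1 with SL, at 15.2 ± 0.96 FPKM in DCA_CF and 2.46 ± 0.10 FPKM in ULO.

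A pair of unnamed genes, LOC103427883 and LOC103419712, kept one direction. LOC103427883 had 14.8, 13.2 and 14.9 FPKM in DCA_CF and 7.73, 9.47 and 7.78 FPKM in ULO at T2 with SL, and LOC103419712 had 13.1, 10.5 and 12.6 FPKM in DCA_CF and 5.87, 8.49 and 6.63 FPKM in ULO. Both rose, by 0.72 (adjusted p = 4.315e-07) and 0.71 (adjusted p = 3.601e-05) on the log2 scale, and both passed as higher in DCA_CF in all 3 other conditions. At T2 without SL the differences were larger, at 1.85 and 1.98, with 176 ± 19 FPKM of LOC103427883 in DCA_CF and 47.9 ± 0.16 FPKM in ULO. SnRK2.3 and rca likewise passed as higher in DCA_CF in all 4 conditions, SnRK2.3 with log2 differences of 0.20 to 0.32 and rca with 0.28 to 1.23. The genes LOC103411633 and LOC103423229, which also rose at T2 with SL, averaged 16.3 ± 3.0 and 5.89 ± 0.28 FPKM in DCA_CF and 9.21 ± 1.2 and 3.12 ± 1.9 FPKM in ULO. In the 6 libraries alone the calls of LOC103427883, LOC103419712, LOC103411633, LOC103423229, rca and SnRK2.3 at T2 with SL were all lost, with adjusted p of 0.07574, 0.192, 0.2031, 0.4634, 0.1078 and 0.2661 in that order. LOC103411633 was lost in 7 of 14 alternatives and LOC103423229 in 5.

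**Figure D5:**
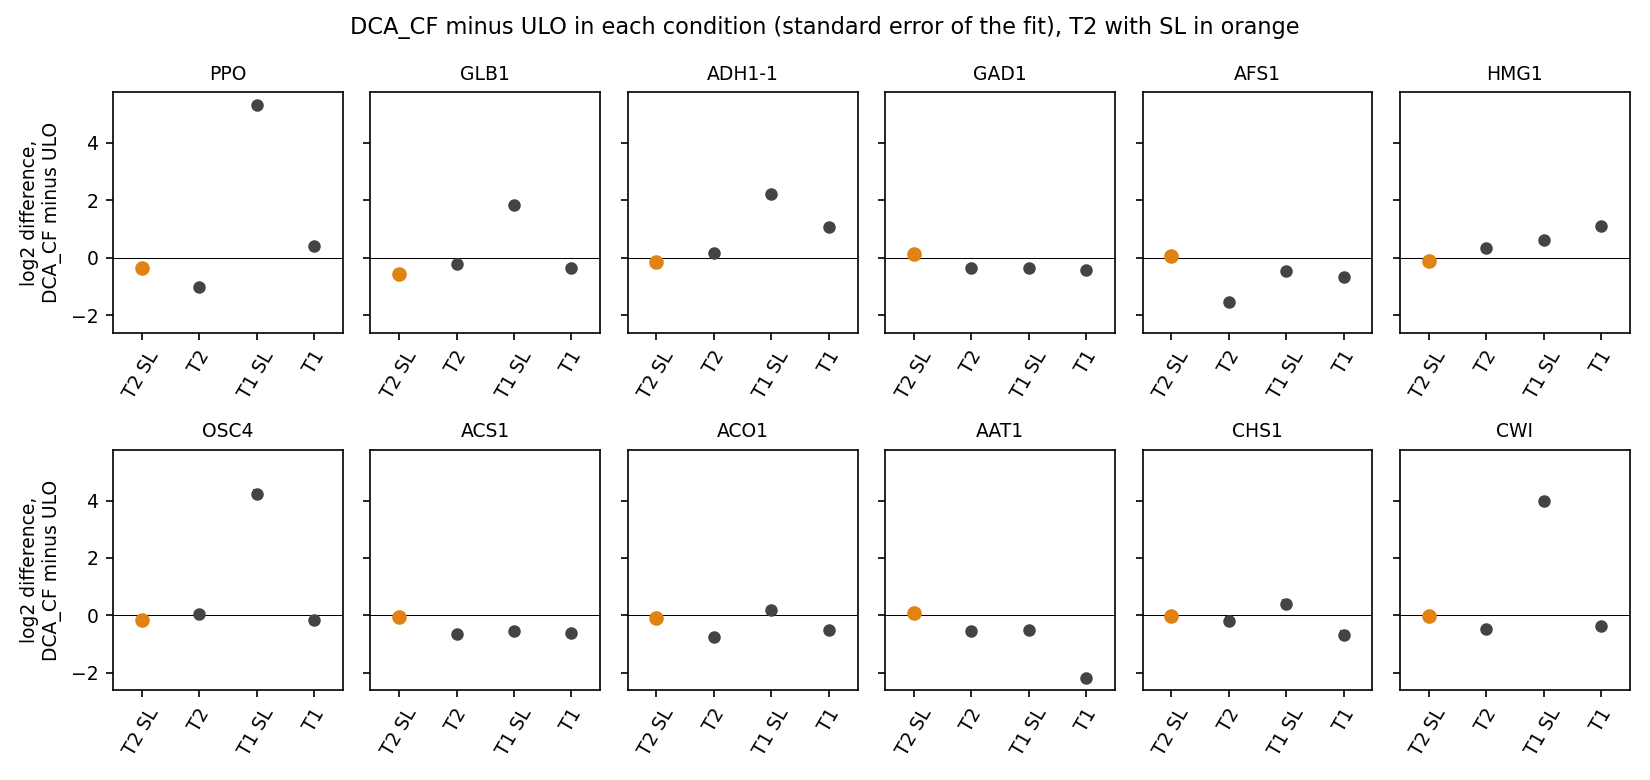
Log2 difference between DCA_CF and ULO (vertical axis) of 12 genes of browning, ethylene, low oxygen and carbon metabolism in each condition, with the standard error of the fit, which is often smaller than the point; T2 with SL is in orange. The orange points lie near 0, between -0.57 (GLB1) and 0.12 (GAD1), while PPO, OSC4 and CWI stand at 5.34, 4.24 and 3.996 at T1 with SL.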

How the data were processed

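Peel RNA was made into non-directional libraries and sequenced as 100-base single reads, per the labels' protocols; without strand, a gene and its antisense partner cannot be told apart. HISAT2, StringTie and DESeq2 are named, without versions, in the submitters' processing notes, and the genome build is not given in the sources used here. The authors deposited 1 table of FPKM; its sheet is named for counts, but its values hold decimals and their low steps depend on gene and library, as FPKM do. As FPKM are not counts, no count model was run. The columns headed DCA were matched to the samples titled DCA_CF.

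Here log2(FPKM + 1) of genes that reached 1 FPKM in 3 or more libraries was fitted with limma 3.58.1 (R 4.3.3), with 1 mean for each of 12 groups, 24 residual degrees of freedom and a mean-variance trend. A pseudocount of 1 understates fold changes of low genes. P-values are two-sided and were adjusted by the Benjamini-Hochberg method over the 32923 genes, with a threshold of 0.05. Names came from the table and from a RefSeq gene table, which held 34074 of the identifiers; 571 tested genes carry a name. Named genes are the 12 of largest difference each way (no overlap, mean log2 level of at least 2), the member of lowest p each way per list, the 5 largest each way whether named or not, and 12 fixed genes, 61 in all; other called genes with a name, such as TL1, PG1, BGAL101, GAD2, SDH6 and AMY10, and members quoted from the lists, were added after their values were seen. Of 33 lists, 30 had a tested gene; those of chloroplast genes, seed storage and oxidative stress had none. The members and lists were chosen with earlier results of these data known. The labels call the 3 samples of a group biological replicates; same-lettered DCA_CF and ULO libraries did not deviate together (correlations of 0.02, -0.08 and -0.03), so letters were not used as pairs. No 2 of the 6 libraries were duplicates. The procedure was tested on simulated data.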

Additional observations from a re-analysis of the deposited data

Results flagged for a closer look

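For the 61 genes named by rule, the DCA_CF minus ULO contrast at T2 with SL was tested against the same contrast in other conditions. Those whose contrast changed by 1 log2 unit or more at an adjusted p under 0.05 (limma) are given here. Genes quoted outside that rule, such as LOC103402577, are left out whatever their change. Each group has 3 libraries. Against T2 without SL, the change of the contrast was positive for AFS1 (1.61), CAS2 (1.51), UGT71A15 (1.16), PR-5b (1.13) and EXPA1 (1.06). It was negative for LOC103427883 (-1.13), HSF6 (-1.25), LOC103419712 (-1.26), XET02 (-1.30), MADS13 (-1.31), rps3 (-3.86) and LOC103444659 (-6.52). UGT71A15 was lower in DCA_CF in both, with log2 differences of -0.44 with SL and -1.60 without SL, and HSF6 took opposite directions, with -0.64 with SL and 0.60 without SL.

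Between T2 and T1, both with SL, the contrast moved up for EXPA1 (1.28) and LOC103423229 (1.13). It moved down for PPO (-5.71), LOC103434169 (-5.21), LOC103452835 (-4.95), OSC4 (-4.41), CWI (-4.03), DHN5 (-3.92), HSF6 (-3.85), rps3 (-2.95), GLB1 (-2.41), ADH1-1 (-2.36), XET02 (-1.66), UGT71A15 (-1.41), AP2D25 (-1.10) and MADS13 (-1.09). In rps3 both changes rest on a mixed DCA_CF group at T2 with SL, at 0.601, 0 and 22.7 FPKM. The change of LOC103444659 against T2 without SL rests on DCA_CF libraries with SL all listed at 0. Its ULO libraries with SL were at 31.4, 32.2 and 31.7 FPKM.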

How the results depend on the processing

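The number of genes called at T2 with SL stayed between 875 and 1285 under 13 of 14 alternatives, 875 to 1031 with 1 library left out. Fitted to the 6 libraries alone it was 175 (67 higher, 108 lower), with 23 genes 2-fold apart. With each contrast fitted to its own libraries, 71 genes were lower here and higher at T1 with SL, and 23 were higher here and at T2 without SL. For the 175, fewer samples estimate the spread, and they come from groups whose replicates varied more than those of most groups. The part of each was not tested. Genes 2-fold apart numbered 203 with a pseudocount of 0.1, since low genes then spread more, and 56 to 66 with 1 library left out, where the split went as far as 35 higher and 31 lower. With the replicate letter as a block, 1180 genes were called, and of the 53 called genes named, HSP90.5 lost its call. No called named gene changed sign. Of these 53, 12 kept the call under every alternative in which they were tested: PR-5b, CAS2, BZIP16, DHN8, CAD, XET01, MYB8, UGT71A15, F3H, XET02, LOC103434169 and LOC103444659. LOC103444659 was not tested in the alternative that left out genes listed at 0 beside a high replicate, because it is such a gene. IAA12, LOC103426379 and LOC103414264 passed in the 6 libraries alone but not under all alternatives: with a pseudocount of 0.1 adjusted p was 0.5333 for IAA12 and 0.4233 for LOC103426379, and LOC103414264 was lost in each fit without 1 library. The other 38 did not pass in the 6 libraries, PPO, GLB1, MALD3, ACS3 and HSF6 among them. Leaving out 1 library ended 8 to 11 calls. Of the called genes outside the naming rule, SDH6 and LOC103402577 kept the call under all 14. Depth in reads is unknown, so values below 1 FPKM carry no counting interval.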
